A study of Homo sapiens with 2 samples.

Results

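Iron uptake, storage and sensing were examined through 10 genes, which were taken by name from the 50868 genes of the table: TFRC, STEAP3 and SLC11A2 for uptake, FTH1, FTL and NCOA4 for storage, SLC40A1 for export, and ACO1, IREB2 and FBXL5 for sensing. Their transcripts were counted by RNA-seq in Molm13, an acute myeloid leukemia (AML) line of human origin with the KMT2A::MLLT3 fusion and an activated FLT3 receptor. An empty-vector control (Vector) and cells labelled as overexpressing the netrin receptor UNC5B (OE-UNC5B, called the OE-labelled library below) gave 1 library each, with no other treatment given in the labels. The methods describe a lentiviral UNC5B construct driven by the CMV promoter, with an mCherry marker and puromycin selection, and the sources used here do not say whether the selected cells were a pool or a single clone. UNC5B itself was at 0 reads in each library, so every direction below rests on the labels. Since neither group has a second library, the differences have no replicate check, and the construct and any difference between the 2 cultures cannot be told apart.

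Cells take up iron mainly as iron-loaded transferrin, which the transferrin receptor carries into endosomes. There it is released, reduced by STEAP3 and moved into the cytosol by the divalent metal transporter SLC11A2. Surplus iron is stored in ferritin, a shell built of heavy (FTH1) and light (FTL) chains. It is recovered when NCOA4 delivers ferritin to autophagosomes, and it leaves the cell through ferroportin, the product of SLC40A1. When iron is scarce, the iron regulatory proteins (ACO1 and IREB2) bind a short hairpin, the iron-responsive element. Binding in the 5' UTR blocks translation, as in the ferritins, and binding in the 3' UTR protects the transcript, as in TFRC. FBXL5, itself stabilised by iron, marks IREB2 for degradation. Leukemic blasts carry much transferrin receptor because dividing cells need iron for ribonucleotide reductase. RNA-seq reads the transcripts only, so translational control at the 5' elements is outside these data.

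The hairpins are shown first, because they are the sequence by which these transcripts are tied to iron. The main transcript of each gene (GENCODE 44, GRCh38) was searched on its own strand for the loop CAGTGN, where N is any base but G, preceded by a stem of 5 bases and an unpaired C and followed by 5 bases of which at least 4 pair with the stem. The capitals mark the 6 bases of the loop, and the 5 stem bases lie on either side of it. The light and heavy ferritin chains and ferroportin carried 1 match each in the 5' UTR:
FTH1, chr11:61967574-61967602, minus strand: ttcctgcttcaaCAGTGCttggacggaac
FTL, chr19:48965335-48965363, plus strand: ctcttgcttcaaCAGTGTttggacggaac
SLC40A1, chr2:189580661-189580689, minus strand: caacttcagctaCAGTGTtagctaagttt
In the 3' UTR, TFRC carried 4 matches and SLC11A2 carried 1:
TFRC, chr3:196050979-196051007, minus strand: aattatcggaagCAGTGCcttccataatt
TFRC, chr3:196050575-196050603, minus strand: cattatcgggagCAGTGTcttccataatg
TFRC, chr3:196050510-196050538, minus strand: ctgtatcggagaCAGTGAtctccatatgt
TFRC, chr3:196050463-196050491, minus strand: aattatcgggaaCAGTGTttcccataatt
SLC11A2, chr12:50988269-50988297, minus strand: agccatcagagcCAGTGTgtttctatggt

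In the ferritins the loop began 45 bases (FTH1) and 39 bases (FTL) from the transcript start, and the matches in FTH1, FTL, SLC40A1 and TFRC had all 5 stem pairs. The match in SLC11A2 had 4 pairs. ACO1 and IREB2 each held 1 match with 4 pairs in long 3' UTRs of 4661 and 3313 nt, and STEAP3, NCOA4 and FBXL5 held none. Of 19688 protein-coding main transcripts, 0.3% held a match in the 5' UTR (median length 132 nt) and 3.13% in the 3' UTR (median length 1022 nt). A match is a description of the sequence, not evidence of binding.

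The libraries held 13715566 (Vector) and 15637137 (OE-UNC5B) counted reads. Of all genes, 15384 had at least 10 reads over both libraries and were compared. Of the 10 iron genes, 9 passed this minimum and SLC40A1 did not. All 10 myeloid markers fixed for Molm13, among them PTPRC, CD33, FLT3 and SPI1, had at least 100 reads in each library. Of the markers of other iron-handling cells, 8 of 10 erythroid, 6 of 7 tissue macrophage and 5 of 5 hepatocyte genes had 0 reads in both. The erythroid list summed to 14 reads in Vector and 9 in the OE-labelled library, nearly all of them HBB, and the macrophage list to 41 and 18, all of them MARCO. EPB42 had 1 read in the OE-labelled library, and defining markers such as KLF1, CD163 and C1QA were at 0 in both.

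None of the iron genes differed by 2-fold between the libraries. FTL, NCOA4 and STEAP3 were lower in the OE-labelled library, FBXL5, IREB2 and SLC11A2 were higher, and TFRC, FTH1 and ACO1 differed by less than the counting error of their reads. The median log2 fold change was -0.011 over the 9 genes, beside -0.0063 over all genes compared, and the values ran from -0.62 to 0.35. At 2-fold or more, 0 of 9 were higher and 0 lower, where 5.15% of all genes compared were higher and 4.79% lower. At 1.5-fold or more, 0 were higher, against 12.9% of all genes, and 1 was lower, FTL, against 12.5%; scaled by library totals, FTL was at -0.57 and 0 were lower by 1.5-fold. The 95% interval from the reads (Clopper-Pearson) lay above 0 for 3 and below 0 for 3 of the 9 genes, where it lay above 0 for 25.2% and below 0 for 26.2% of all genes. With 9 genes these counts are near those shares. The intervals cover counting error only, and they compare the 2 libraries and not the conditions.

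**Figure D1:**
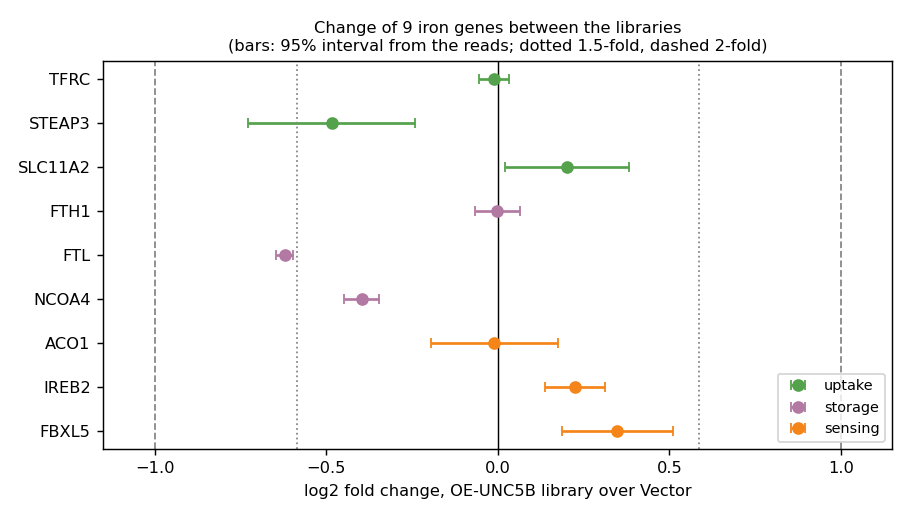
Log2 fold change (horizontal axis) of the 9 iron genes with at least 10 reads, OE-labelled library over Vector, coloured by role, with bars for the 95% interval from the reads. FTL, at -0.62, is the single point past the dotted 1.5-fold line, none reaches the dashed 2-fold line, and the bars of TFRC, FTH1 and ACO1 cross 0.

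TFRC, the transferrin receptor (chromosome 3, 196027183 to 196082189, minus strand), had 7674 reads in Vector and 8965 in the OE-labelled library, or 569 and 564 CPM (reads scaled to library size with TMM factors). These levels differed by a log2 fold change of -0.012 (interval -0.056 to 0.032), or a fold of 0.962 to 1.02 by counting error alone. Scaled by library totals the value was 0.035, and those of FTH1 and ACO1 were 0.046 and 0.037, so the signs of these 3 small differences depend on the scaling. STEAP3, the endosomal ferrireductase (chromosome 2, 119223831 to 119265652, plus strand), had 310 and 261 reads, or 22.98 and 16.4 CPM. It was lower in the OE-labelled library, with a log2 fold change of -0.48 (-0.73 to -0.24). SLC11A2, which carries ferrous iron out of the endosome (chromosome 12, 50979401 to 51028566, minus strand), had 438 and 593 reads, or 32.5 and 37.3 CPM. It was slightly higher, with a log2 fold change of 0.20 (0.020 to 0.38).

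Of the storage genes, the ferritin chains parted. FTL, the light chain (chromosome 19, 48965301 to 48966878, plus strand), was the most abundant iron transcript, with 31796 reads in Vector and 24352 in the OE-labelled library. Its level was 2356 CPM in Vector and 1532 CPM in the other library, a log2 fold change of -0.62 (-0.65 to -0.60), or 1.54-fold lower. Among all genes compared, 11.5% had a lower log2 fold change than FTL. FTH1, the heavy chain, which oxidises iron for storage (chromosome 11, 61959718 to 61967660, minus strand), had 3609 and 4248 reads, or 267 CPM in each library. Its log2 fold change was -0.0013 (-0.066 to 0.063). NCOA4, the receptor that brings ferritin to autophagosomes (chromosome 10, 46005088 to 46030714, minus strand), had 6597 and 5902 reads, or 489 and 371 CPM. It was lower, with a log2 fold change of -0.40 (-0.45 to -0.35), so FTL and NCOA4 went one way while FTH1 stayed within its counting error.

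Of the myeloid marker list, some genes were also lower in the OE-labelled library, LYZ from 51742 to 23700 reads and MPO from 3363 to 1553 reads. Others were higher there, among them PTPRC (1592 and 3102 reads), MEIS1 (247 and 542) and FLT3 (4067 and 6395). The 10 myeloid markers together summed to 5000 CPM in Vector and 2699 CPM in the other library, of which LYZ alone gave 3835 and 1491 CPM; the other 9 summed to 1165 and 1208 CPM. Their part in the lower level of FTL was not tested.

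Ratios within a library do not depend on the scaling between libraries. There were 8.81 FTL reads for each FTH1 read in Vector and 5.73 in the OE-labelled library, a log2 change of -0.62 (exact conditional interval -0.69 to -0.55). The ratio of TFRC to FTH1, uptake against storage, was 2.13 and 2.11, a log2 change of -0.011 (-0.089 to 0.067). Measured against FTL, TFRC stood at 0.241 and 0.368, a log2 change of 0.61 (0.56 to 0.66). The balance between the receptor and ferritin was thus equal within counting error by the heavy chain and different by the light chain. FTH1 and FTL together took 0.258% of all counted reads in Vector (95% exact interval 0.255 to 0.261) and 0.183% (0.181 to 0.185) in the other library.

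Both ferritin chains have many processed pseudogenes, and reads can be lost or shared among near-identical copies. Of the 75-base windows of the main FTH1 transcript, 33.7% occur exactly elsewhere in GRCh38, against 11.7% for FTL, 0.62% for NCOA4, 0.0136% for ACO1 and 0% for the other genes. With windows of 200 bases, 0% of either ferritin transcript occurs exactly elsewhere, so the share depends on the read length. Exact copies only were counted. The values of FTH1 and FTL are therefore uncertain to the extent that the counting, whose settings are not given in the sources used here, dropped or divided reads among such copies. The table listed 24 FTH1 pseudogenes, of which 12 had reads, with 1182 reads in Vector and 1284 in the OE-labelled library. That was 24.7% and 23.2% of all reads on the heavy chain family. FTH1P2 held most of them, with 606 and 646 reads, then FTH1P11 with 191 and 214 and FTH1P8 with 131 and 127. With these reads added, FTH1 had a log2 fold change of -0.029 (-0.085 to 0.027), still within counting error of 0. The 16 FTL pseudogenes held 248 and 195 reads, under 1% of the light chain family. Nearly all were in FTLP3, with 245 and 193 reads and a log2 fold change of -0.58 (-0.86 to -0.30). FTLP2 had 2 reads in Vector and 1 in the other library, and FTLP12 had 1 and 0. With the pseudogenes added, FTL stood at -0.62 (-0.64 to -0.60).

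**Figure D2:**
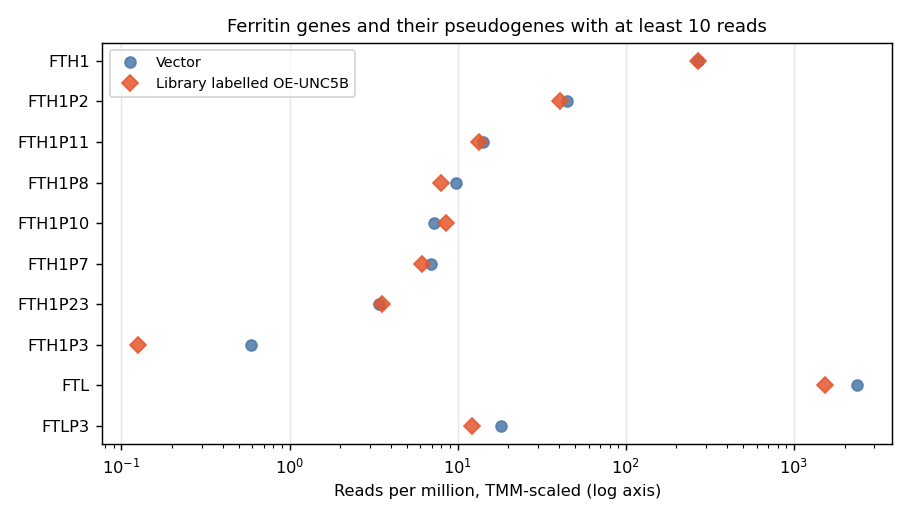
Reads scaled to library size (CPM, log axis) for the ferritin genes and their pseudogenes whose summed reads reached 10, with circles for Vector and diamonds for the OE-labelled library. The symbols of FTH1 coincide at 267, while FTL and its pseudogene FTLP3 are both lower in the OE-labelled library; FTH1P3, the widest gap, rests on 8 and 2 reads.

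Export through ferroportin was not detected. SLC40A1 (chromosome 2, 189560579 to 189583758, minus strand) had 0 reads in Vector and 0 in the OE-labelled library. A count of 0 allows up to 3 reads (the one-sided 95% limit of a count, where the intervals elsewhere are for both sides), which is 0.222 CPM in Vector and 0.189 CPM in the other library, so no fold change was computed. The other export and oxidation genes were near this floor too. CP (ceruloplasmin, a ferroxidase) and HEPH (hephaestin) had 1 read each in Vector and 0 in the other library, HEPHL1 and HAMP (hepcidin, which triggers the breakdown of ferroportin) had 0 in both, and BMP6 had 0 and 2.

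Among the sensing genes, FBXL5 and IREB2 were higher in the OE-labelled library. FBXL5, the substrate receptor of the ubiquitin ligase that removes IREB2 (chromosome 4, 15604539 to 15681679, minus strand), had 528 reads in Vector and 792 in the other library, or 39.1 and 49.8 CPM. Its log2 fold change was 0.35 (0.19 to 0.51), the highest of the iron genes. IREB2, or iron regulatory protein 2 (chromosome 15, 78437431 to 78501456, plus strand), had 1811 and 2494 reads, or 134 and 157 CPM. Its log2 fold change was 0.23 (0.14 to 0.31). ACO1, which acts as cytosolic aconitase when it holds an iron-sulfur cluster and as iron regulatory protein 1 when it does not (chromosome 9, 32384603 to 32454769, plus strand), had 442 and 517 reads, or 32.8 and 32.5 CPM. Its log2 fold change was -0.011 (-0.20 to 0.18). There were 4.10 IREB2 reads for each ACO1 read in Vector and 4.82 in the other library, a log2 change of 0.24 (0.029 to 0.44).

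The order of the iron genes by level depends on the length used. The deposited FPKM values divide the reads by a gene length that was 1.23 (STEAP3) to 5.07 (FTH1) times that of the main transcript. For FTH1 this was 6097 nt against a main transcript of 1203 nt. By deposited FPKM, FTL came first at 1684 in Vector and 1131 in the OE-labelled library, followed by NCOA4 at 67.5 and 52.9, TFRC at 44.1 and 45.2, and FTH1 at 43.2 and 44.6. As CPM per kilobase of the main transcript, FTL was again first, at 2706 and 1759, but FTH1 came second at 222 in each library. On this scale FTL exceeded FTH1 12.2-fold in Vector and 7.92-fold in the other library. These ratios take the reads on FTH1 and FTL alone. Pseudogenes held 24.7% (Vector) and 23.2% of the heavy chain family's reads, and 0.774% and 0.794% of the light chain family's. BEST1 also overlaps the FTH1 locus by 5798 nt on the other strand, and the strand setting is not known. The effect of either on the ratios was not tested.

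Below FTH1 on the same per-kilobase scale, NCOA4 and TFRC exchanged places. NCOA4 stood at 141 in Vector (exact Poisson interval 138 to 145) above TFRC at 113 (111 to 116), and in the OE-labelled library TFRC stood at 112.5 (110.2 to 115) above NCOA4 at 107 (105 to 110.1). IREB2 at 21.2 and 24.8, FBXL5 at 11.2 and 14.3, and SLC11A2 at 7.86 and 9.03 followed in this order in both libraries. STEAP3 and ACO1 came last among the detected genes, and their intervals overlapped in each library: 4.81 to 6.03 and 4.001 to 4.83 in Vector, and 3.40 to 4.35 and 4.001 to 4.76 in the other. SLC40A1 was below all of them.

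**Figure D3:**
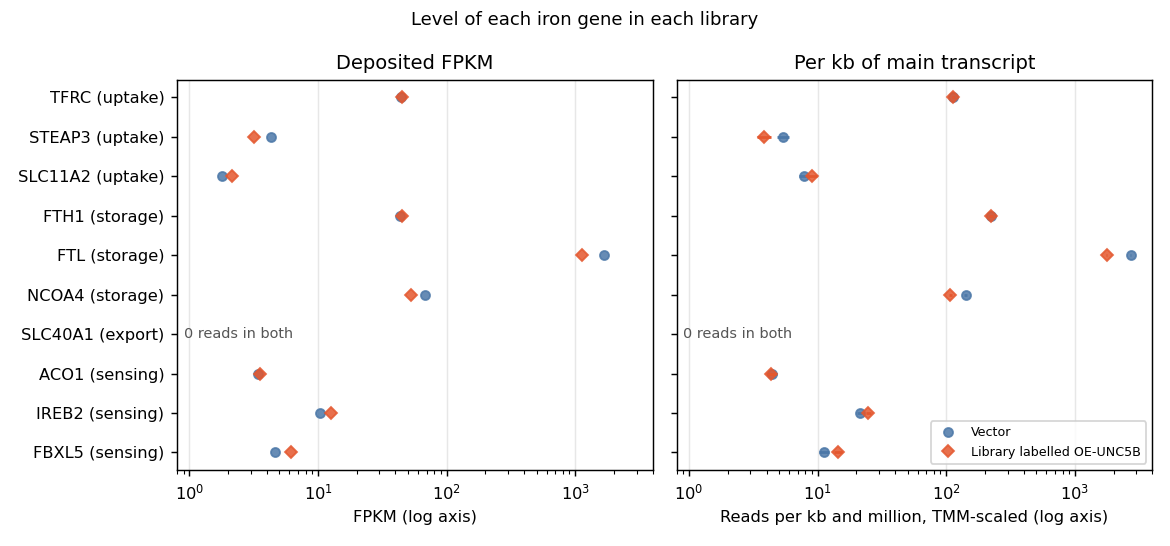
Level of each iron gene per library on log axes, as deposited FPKM (left) and as CPM per kilobase of the main transcript, with exact Poisson intervals mostly narrower than the symbols (right). FTH1 lies beside TFRC on the left, near 44, and above it on the right, at 222; SLC40A1 had 0 reads in both libraries.

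The wider iron network was described with 81 genes in 9 lists, of which 63 passed the minimum of 10 reads. Their median log2 fold change was -0.12, beside -0.0063 over all genes compared. At 2-fold or more, 0 were higher (beside 5.15% of all genes) and 1 was lower, BLVRA (1.59%, beside 4.79%). At 1.5-fold or more, 1 was higher (1.59%, beside 12.9% of all genes) and 9 were lower (14.3%, beside 12.5%). The read interval lay below 0 for 28 of the 63 (44.4%, beside 26.2%) and above 0 for 10 (15.9%, beside 25.2%). These interval counts, in total and by list, were made with TMM scaling only. Library totals shift the median of all genes compared by 0.047, so intervals that end near 0 depend on the scaling. Deeper genes have narrower intervals, and read depth was not matched between the iron genes or lists and all genes. BLVRA, which reduces biliverdin from haem breakdown, had 76 reads in Vector and 31 in the OE-labelled library, a log2 fold change of -1.52 (-2.18 to -0.91). It did not pass edgeR's exact test at an assumed coefficient of variation of 0.2 or 0.4.

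Other uptake and reduction genes had a median of -0.039 over 6 genes compared of 14. SLC39A14, a zinc transporter that also carries iron and the most abundant of this list, had 1829 and 2334 reads, a log2 fold change of 0.12 (0.026 to 0.20). The list's largest differences, named after their values were seen, were both lower: CYBRD1, a ferric reductase, at 84 and 50 reads and -0.98 (-1.52 to -0.46), its 1 gene past 1.5-fold (16.7% of the list, beside 12.5% of all genes), and MCOLN1, a lysosomal cation channel, at 321 and 289 reads and -0.39 (-0.62 to -0.15). Transferrin itself (TF) and LCN2 had 0 reads in both libraries, and TFR2, the second transferrin receptor, had 217 and 227 reads with a log2 fold change of -0.17 (-0.45 to 0.10). The iron chaperones that load ferritin divided, with PCBP1 at 5768 and 6144 reads and a log2 fold change of -0.15 (-0.20 to -0.093), and PCBP2 at 4338 and 6041 reads and 0.24 (0.18 to 0.30).

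Mitochondrial iron and iron-sulfur cluster assembly had a median of -0.18 over 19 genes, with the read interval below 0 for 10 (52.6%, beside 26.2% of all genes) and above 0 for 3 (15.8%, beside 25.2%). HSPA9, a mitochondrial chaperone and the most abundant gene of the lists, had 12080 and 13686 reads, a log2 fold change of -0.056 (-0.092 to -0.021). Scaled by library totals, HSPA9 was at -0.0091. Past 1.5-fold, 3 genes of this list were lower (15.8%, beside 12.5% of all genes) and 0 higher (beside 12.9%). Among them, named after their values were seen, were BOLA3 (451 and 328 reads, -0.70) and ABCB10 (2518 and 1843, -0.69). ABCB10 is a mitochondrial inner membrane transporter that binds the iron importer SLC25A37, or mitoferrin. SLC25A37 stood on the other side, with 1917 and 3112 reads and a log2 fold change of 0.46 (0.38 to 0.55). Cytosolic iron-sulfur assembly had a median of -0.12 over 9 genes, with the interval below 0 for 5 (55.6%, beside 26.2% of all genes) and above 0 for 2 (22.2%, beside 25.2%). CIAO1, a core subunit of the targeting complex and the most abundant, was at -0.12 (-0.21 to -0.020), and CIAPIN1 (756 and 520 reads, -0.78) and CIAO3 (385 and 301, -0.59) were lower past 1.5-fold (22.2% of the list, beside 12.5% of all genes), with 0 higher (beside 12.9%). Scaled by library totals, CIAO1 was at -0.070, and CIAO3 was at -0.54, short of 1.5-fold.

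Haem synthesis had a median of -0.071 over 8 genes, with 0 past 1.5-fold (beside 12.9% of all genes higher and 12.5% lower) and the interval below 0 for 3 (37.5%, beside 26.2%) and above 0 for 0 (beside 25.2%). ALAS1, the first enzyme of the pathway, had 1733 and 1607 reads, a log2 fold change of -0.35 (-0.44 to -0.25), and its erythroid counterpart ALAS2 had 0 reads in both libraries. Haem transport and breakdown had a median of -0.18 over 8 genes. Past 1.5-fold, 3 were lower (37.5%, beside 12.5% of all genes) and 0 higher (beside 12.9%), and the interval lay below 0 for 3 (37.5%, beside 26.2%) and above 0 for 0 (beside 25.2%). HMOX2, the constitutive haem oxygenase, was at -0.069 (-0.24 to 0.10). The inducible HMOX1, 1 of the 3 counted lower past 1.5-fold, had only 10 reads in Vector and 6 in the other library. Its log2 fold change was -0.93 with an interval that spanned 0 (-2.72 to 0.63). FLVCR1, a haem exporter, had 303 and 224 reads, a log2 fold change of -0.67 (-0.93 to -0.42). The partners of FBXL5 and NCOA4 had a median of -0.047 over 7 genes, with 1 higher past 1.5-fold (14.3%, beside 12.9% of all genes) and the interval below 0 for 3 and above 0 for 3 (42.9% each, beside 26.2% and 25.2%). HERC2, a ligase that turns over NCOA4, had 2523 and 3864 reads, a log2 fold change of 0.38 (0.31 to 0.45), and RB1CC1, an autophagy scaffold, had 1460 and 2724 reads and 0.66 (0.57 to 0.76). The ligase subunits SKP1, CUL1 and RBX1, which work with FBXL5, were at -0.15, -0.27 and -0.48, opposite in sign to FBXL5. The other transcripts known for an iron-responsive element had a median of 0.14 over 3 genes.

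**Figure D4:**
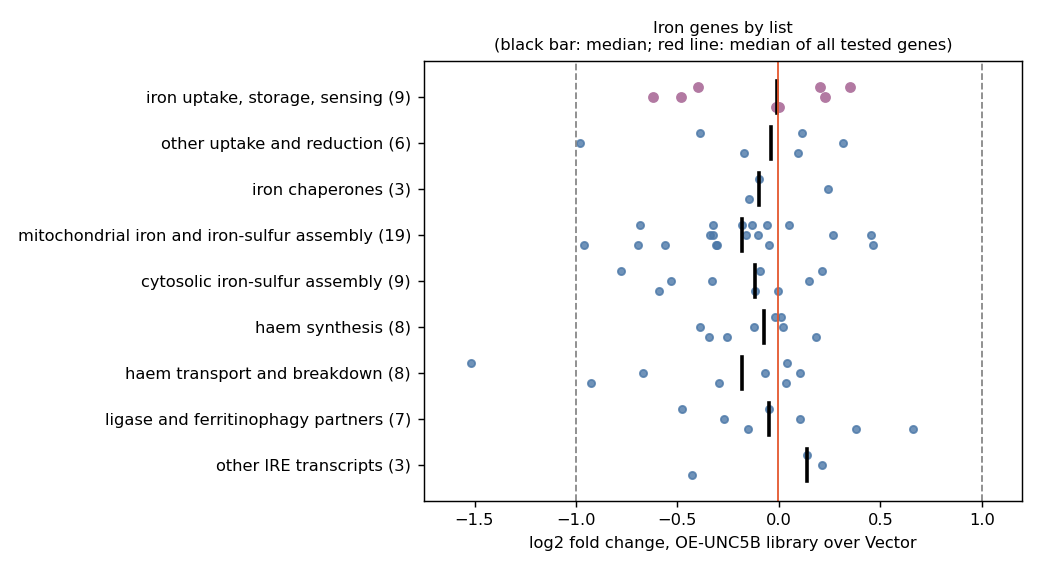
Log2 fold change (horizontal axis) of the iron genes and of the other iron lists, 1 point per gene with at least 10 reads, black bars for list medians, a red line for the median of all genes compared and dashed lines at 2-fold (IRE, iron-responsive element). BLVRA, at -1.52, is the single point past 2-fold, and the list medians lie between -0.18 and 0.14.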

How the data were processed

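Molm13 RNA was measured in 2 libraries, Vector and OE-UNC5B, prepared with the VAHTS Universal V6 kit per the methods, and the reads were compared with GRCh38. The submitters' processing notes name bcl2fastq 2.19, HISAT2 2.0.4 and StringTie 1.3.0. The gene counter, annotation release and strand setting are not given in the sources used here. The authors deposited a table of counts, unnormalized reads for every gene. The authors deposited FPKM beside them, scaled to gene length and to the library's counted reads.

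For comparison, TMM scaling was applied (R 4.3.3 with edgeR 4.0.16), giving factors of 0.984 (Vector) and 1.02 (OE-UNC5B). Log2 fold changes had 0.5 reads added and were computed where the summed reads reached 10. Fold changes have 95% Clopper-Pearson intervals (scipy 1.17.1); levels have exact Poisson intervals and ratios exact conditional intervals, and all cover counting error only. A gene was counted past a fold of 2 or 1.5. With 1 library per group the variation between libraries could not be estimated, so edgeR's quasi-likelihood test could not be fitted, and any test of the conditions has to assume that variation. The procedure was tested on simulated counts. These held counting error only, so they cannot show how it does where libraries vary beyond that.

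Coordinates are the file's. Main transcripts, lengths and hairpins came from GENCODE 44, on the same build; gene ends differed from the file's for some genes. The methods give a length for the single-end sequences that may be that of the fragments, so sequence copies were searched with windows of 75 bases and, added after seeing the data, of 200 bases.

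Named genes were UNC5B, the 10 iron genes, list genes past 2-fold, the most abundant gene of each list, and the 3 pseudogenes of each ferritin with most reads; others were named after their values were seen. Some genes that this rule names are not reported here. The iron genes, lists and alternatives were chosen with earlier results of these data known.

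The settings tried besides were DESeq2 1.42.0 size factors, library totals, FPKM with 0.1 added, 2 reads added, no minimum, at least 50 reads, 1.5-fold, an exact binomial test on reads, and edgeR's exact test with an assumed coefficient of variation of 0.2 or 0.4. Adding pseudogene reads and rescaling the 1.5-fold counts, HSPA9, CIAO1 and CIAO3 were chosen after seeing the data.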

Additional observations from a re-analysis of the deposited data

How the results depend on the processing

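No paired analysis was possible because each group has a single library, and leaving out a replicate was not run for the same reason. The counts of 0 iron genes past 2-fold held under the alternatives run, apart from 1.5-fold by construction, which gave 1 lower gene, FTL. That call rests on the scaling: with library totals, or with FPKM and 0.1 added, 0 iron genes were lower by 1.5-fold, since FTL was then at -0.57, and it was at -0.59 with DESeq2 size factors. TFRC, FTH1 and ACO1 changed sign with library totals (0.035, 0.046 and 0.037), DESeq2 size factors and FPKM with 0.1 added, and the other 6 iron genes kept their sign under library totals, DESeq2 size factors, FPKM with 0.1 added and 2 reads added.

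Over all genes, 792 were higher and 737 lower past 2-fold. Without a minimum these were 2886 and 3079, with at least 50 reads 359 and 297, and past 1.5-fold 1991 and 1923. FPKM with 0.1 added gave 430 lower genes. With the exact binomial test, 522 were higher and 521 lower. With edgeR's exact test and an assumed coefficient of variation of 0.2 there were 131 and 121, and with 0.4 there were 7 and 8. In the other iron lists, 0 higher and 1 lower became 1 and 7 without a minimum, 1 and 9 past 1.5-fold, and 0 and 0 with either assumed variation, so the difference in BLVRA did not pass under either. The causes were not tested beyond the numbers of genes each setting admits.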
